A study of Mus musculus with 6 samples.

Results

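The 10 genes described here encode growth factors of the IGF, HGF, PDGF and EGF families, with 1 receptor and 1 binding protein: *Igf1*, *Igf1r*, *Igfbp4*, *Hgf*, *Pdgfa*, *Pdgfc*, *Hbegf*, *Areg*, *Ereg* and *Tgfa*. They were taken by name from the count tables, which hold 23424 genes, and all 10 were listed in all 6 libraries. The libraries are bulk RNA-seq of tumor-associated macrophages (TAMs) from tumors of YUMM1.7, a mouse melanoma cell line whose driver mutations include BRAFV600E and the loss of Cdkn2. The cells were injected intradermally into WT C57Bl/6J female mice that were 8 weeks old at tumor induction and received no treatment, and the tumors were collected at day 21. CD45+CD11b+ cells without lineage markers were sorted by FACS into F4/80high and F4/80low TAMs, 3 libraries each, so that both groups share the strain, the sex, the tumor line and the time and differ in the sorting gate alone. F4/80 is a macrophage surface protein encoded by *Adgre1*. Each library came from pooled tumors of 1 of 3 independent experiments, a single tumor line was used, and the gate does not by itself remove every other CD11b+ cell.

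These factors act locally on cells that carry the matching receptor tyrosine kinase. IGF1 binds IGF1R and is held or released by IGF-binding proteins, HGF binds MET, PDGF-A and PDGF-C bind PDGF receptors of stromal cells, and HB-EGF, amphiregulin, epiregulin and TGF-alpha bind EGFR. Macrophages are a known source of IGF1 and of EGFR ligands in healing and in tumor tissue. The comparison asks which of these genes differed between the TAM subsets.

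*Igf1*, *Pdgfc* and *Igfbp4* are the 3 of these genes that were higher in F4/80high TAMs in all 3 replicate pairs, and the sequence before their RefSeq start is shown for that reason. Positions are on GRCm38.p6, on the plus strand, and are counted back from the base before the start. Capitals mark matches, on either strand, to any of 6 motifs: the PU.1 core GAGGAA, C/EBP TTGCNNAA, AP-1 TGANTCA, CRE TGACGTCA, the MAF half-site TGCTGAC and the TATA box TATAAA. The *Pdgfc* window, chr3:81036166-81036415, held none of the 6. The *Igfbp4* window, chr11:99040994-99041243, held a TATA box from -28 to -23. The *Igf1* window of the same length lies wholly inside an exon of longer *Igf1* transcripts in GENCODE M21, so only the stretch between its matches is shown, chr10:87861051-87861080, with a PU.1 core from -60 to -55 and an AP-1 motif from -37 to -31.
Pdgfc: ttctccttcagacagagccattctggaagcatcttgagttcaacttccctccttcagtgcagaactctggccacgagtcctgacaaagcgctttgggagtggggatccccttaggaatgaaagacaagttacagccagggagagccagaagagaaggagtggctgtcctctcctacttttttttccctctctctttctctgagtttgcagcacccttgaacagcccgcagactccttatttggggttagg
Igfbp4: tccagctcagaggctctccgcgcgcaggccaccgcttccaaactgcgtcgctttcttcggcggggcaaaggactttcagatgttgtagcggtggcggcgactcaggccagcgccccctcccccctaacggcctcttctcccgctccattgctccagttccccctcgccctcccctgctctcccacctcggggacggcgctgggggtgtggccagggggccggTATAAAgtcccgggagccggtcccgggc
Igf1: GAGGAAgggaaggagctggaactTGAATCA

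Of 32851 RefSeq windows of 250 bases before a start, 23.3% held the PU.1 core, 9.56% C/EBP, 6.75% AP-1, 1.55% CRE, 3.81% the MAF half-site and 12.4% the TATA box. Of the 10 genes, 8 had a window. *Areg* was the only one of the 8 with a CRE, from -61 to -54, and it also held a TATA box from -31 to -26 and a PU.1 core from -124 to -119. A PU.1 core was also found in windows of *Hgf*, from -47 to -42 and from -181 to -176, and of *Pdgfa*, from -27 to -22. These are matches of letters in a window, and the libraries do not show which start was used.

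Total counts were 16045281 to 43604373 per library. Replicates 1 and 2 of both subsets form batch 1 in the study and replicate 3 of both forms batch 2. In batch 2, 3 features (*Lars2*, *Gm23935* and *Gm15564*) held 16.1% and 17.1% of the counts, against at most 0.609% in batch 1. Expression is given as normalized CPM, the counts of a gene brought to a common library size by TMM over the 14645 protein-coding genes whose counts added up to 10 or more. Differences are log2 fold changes of F4/80high over F4/80low from edgeR with batch as a term, and a gene was called where its p, adjusted by Benjamini-Hochberg, was under 0.05 and its log2 fold change beyond 1 in either direction. *Adgre1* measured 273, 539 and 360 CPM in F4/80high and 243, 327 and 183 CPM in F4/80low replicates 1, 2 and 3. F4/80high was higher in all 3 replicate pairs, while the ranges of the subsets overlapped (log2 fold change 0.67, SE 0.30, edgeR adjusted p = 0.664).

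*Igf1*, *Pdgfc* and *Igfbp4* were higher and *Igf1r* was lower in F4/80high TAMs at an unadjusted p under 0.05, and none of the 10 genes was called. No gene was called in this fit (0% of all 14645), where 1113 had an unadjusted p under 0.05. Of the 10 genes, 3 were higher at that unadjusted level, against 3.28% of all genes, and 1 was lower, against 4.32%. DESeq2 with the same batch term called *Igf1* and *Pdgfc*, both higher in F4/80high, where it called 0.307% of all genes in that direction. With the replicate number as a block, each F4/80high library was set against the F4/80low library of the same number. In that fit, edgeR called 0.232% of all genes as higher in F4/80high and none of the 10. DESeq2 with that replicate block called *Igf1* and *Pdgfc* again, with 0.895% of all genes called as higher. The study itself showed *Igf1* and *Pdgfc* from these same libraries, so their calls are not independent evidence. In bulk libraries, fewer cells that express a gene and less RNA per cell cannot be told apart.

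**Figure D1:**
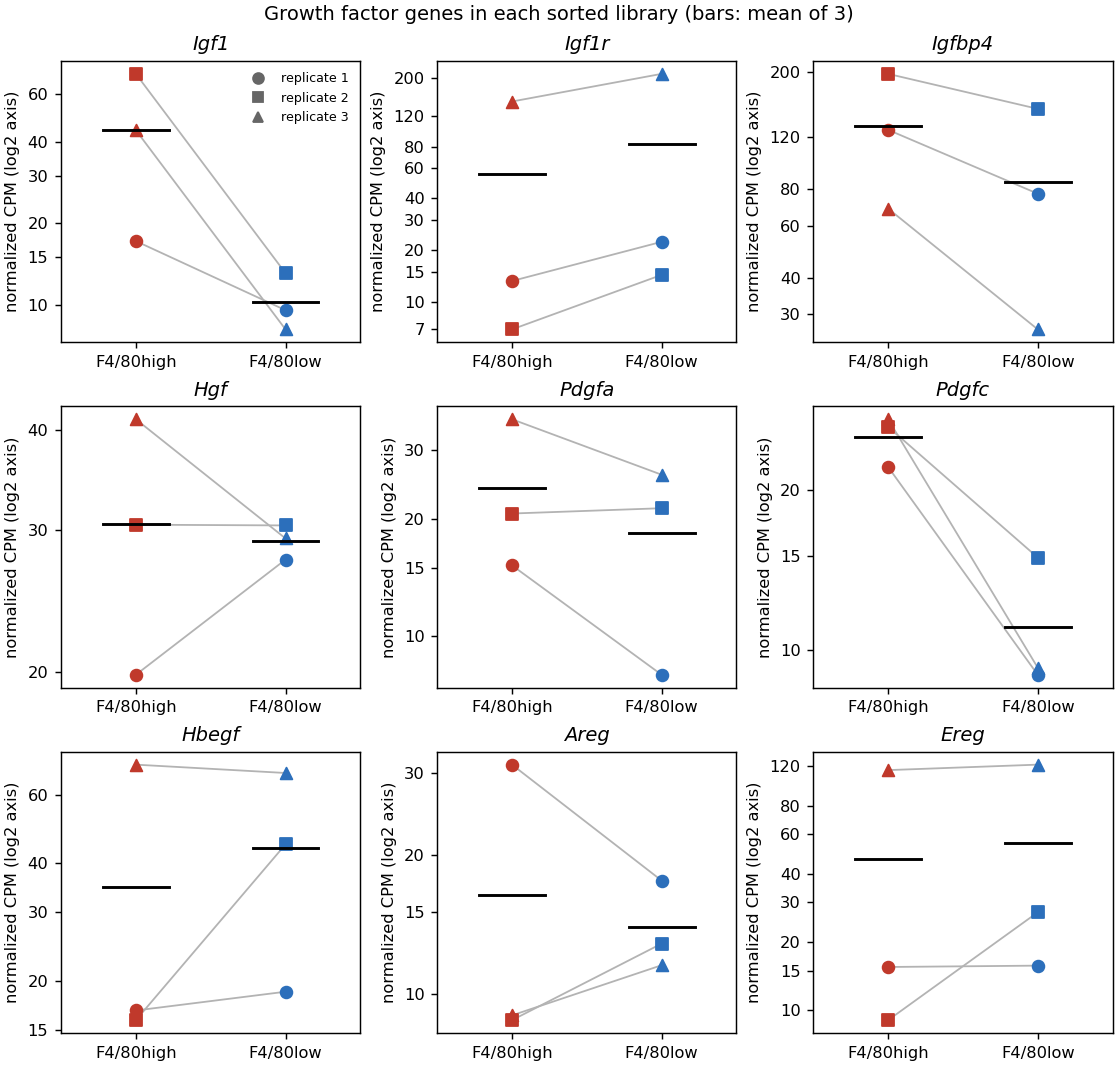
Normalized CPM (log2 axis) of 9 of the 10 genes in each library. Points of 1 replicate number are joined, marker shape gives the replicate, and black bars are means of 3. The F4/80high and F4/80low points do not overlap for *Igf1* and *Pdgfc*, and replicate 3 stands far above the others for *Igf1r* and *Ereg* in both subsets.

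*Igf1*, which encodes the ligand of IGF1R, had the largest difference of the 9 genes with more than 12 counts. It lies on chromosome 10 from 87858265 to 87937042 (ENSMUSG00000020053, plus strand, GRCm38 with GENCODE M21, as for the other positions). F4/80high replicates 1, 2 and 3 measured 17.2, 71.5 and 44.2 CPM of *Igf1*, and F4/80low replicates 1, 2 and 3 measured 9.54, 13.1 and 8.10 CPM. Every F4/80high library lay above every F4/80low library, which 2.3% of all genes showed, and F4/80high replicate 1 lay closest to the F4/80low range. The means were 44.3 ± 27.1 and 10.2 ± 2.56 CPM (SD, n = 3 each), and the fitted log2 fold change 2.12 (SE 0.48, edgeR unadjusted p = 0.00160, adjusted p = 0.440). Within the replicate pairs, *Igf1* was 1.80-fold, 5.46-fold and 5.46-fold higher in F4/80high, so the difference in replicate 1 was the smallest. DESeq2 gave *Igf1* an adjusted p of 0.00570 with batch and 3.04e-05 with the replicate block, and edgeR with the block gave 0.0652 and a log2 fold change of 1.91. Without F4/80high replicate 1, edgeR called *Igf1* (log2 fold change 2.57, adjusted p = 0.0259), together with 0.222% of the genes tested there as higher in F4/80high. Without F4/80high replicate 2, the log2 fold change of *Igf1* was 1.36 (edgeR adjusted p = 0.532). Over 17 alternatives the adjusted p ran from 3.04e-05 to 1.

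Fibroblasts also express *Igf1*, so their markers are given beside it. The sort for CD45+ cells is meant to leave fibroblasts out, yet RNA of their markers was found in every library. The 10 fibroblast and pericyte markers summed to 1161, 464 and 1581 CPM in F4/80high and to 1338, 1085 and 1927 CPM in F4/80low replicates 1, 2 and 3, and 8 of the 10 markers had a log2 fold change under 0. F4/80high replicate 2, the library with the most *Igf1*, had the lowest fibroblast sum. It also had the highest sum of 10 macrophage markers, 23826 CPM, against 5590 to 10619 CPM in the other 5. Of these 10 markers, which include *Adgre1*, the gene of the sorting gate, 8 had a log2 fold change above 0. At an unadjusted p under 0.05, 3 were higher, against 3.28% of all genes. F4/80high replicate 3, the next in *Igf1*, had the lowest macrophage sum, 5590 CPM, and a fibroblast sum of 1581 CPM. The part of either cell type in the *Igf1* values was not tested.

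*Igfbp4* encodes an IGF-binding protein that limits the binding of IGF1 to its receptor. It lies on chromosome 11 from 99041244 to 99054392 (plus strand) and measured 127, 197 and 68.6 CPM in F4/80high and 77.1, 150 and 26.7 CPM in F4/80low replicates 1, 2 and 3. The ranges overlapped, but each F4/80high library lay above its own pair, by 1.65-fold, 1.31-fold and 2.57-fold. The log2 fold change of *Igfbp4* was 0.79 (SE 0.33, edgeR unadjusted p = 0.0400, adjusted p = 0.639), from 0.51 to 1.19 over the alternatives. Of all genes, 16% were higher in F4/80high in all 3 pairs, against 3 of these 10, and 15.9% were lower in all 3, against 2 of these 10, *Igf1r* and *Ereg*.

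*Igf1r*, the receptor of IGF1, went the other way. It lies on chromosome 7 from 67952827 to 68233668 (plus strand) and measured 13.3, 6.95 and 146 CPM in F4/80high and 22.4, 14.4 and 212 CPM in F4/80low replicates 1, 2 and 3. F4/80high was at 0.592, 0.483 and 0.691 of F4/80low in the 3 pairs, while the pairs themselves differed far more from each other. Between subsets *Igf1r* had a log2 fold change of -0.75 (SE 0.30, edgeR unadjusted p = 0.0339, adjusted p = 0.623). DESeq2 with the replicate block gave *Igf1r* an adjusted p of 0.0449, with a fold change too small for a call.

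The batch difference was larger than the subset difference for several of these genes. *Igf1r* differed between batch 2 and batch 1 by a log2 of 3.69 (SE 0.31, edgeR adjusted p = 2.70e-05), *Ereg* by 2.88 (SE 0.33, edgeR adjusted p = 1.58e-04) and *Hbegf* by 1.65 (SE 0.37, edgeR adjusted p = 0.00617), all higher in batch 2. *Igfbp4* was lower in batch 2, with a log2 difference of -1.64 (SE 0.38, edgeR adjusted p = 0.00682). That is 4 of the 10 genes with an adjusted p under 0.05 for the batch, where 42.6% of all genes had one. For *Igf1* the batch difference was -0.23 (SE 0.50) and for *Pdgfc* -0.09 (SE 0.33).

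*Pdgfc* encodes PDGF-C, a ligand of PDGF receptor alpha that is cut by proteases to become active. It lies on chromosome 3 from 81036416 to 81214040 (ENSMUSG00000028019, plus strand) and measured 22.1, 26.4 and 27.2 CPM in F4/80high and 8.96, 14.9 and 9.24 CPM in F4/80low replicates 1, 2 and 3. The subsets did not overlap, and the F4/80high libraries lay close together. The means were 25.2 ± 2.73 and 11.0 ± 3.36 CPM (SD, n = 3 each), with pair ratios of 2.47, 1.77 and 2.95. The log2 fold change of *Pdgfc* was 1.19 (SE 0.31, edgeR unadjusted p = 0.00379, adjusted p = 0.461), and it stayed between 1.02 and 1.49 over 17 alternatives, whose adjusted p ran from 0.0125 to 1. DESeq2 called it with batch (adjusted p = 0.0444) and with the replicate block (adjusted p = 0.0125), and edgeR with the block did not (adjusted p = 0.128).

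*Pdgfa*, which encodes the PDGF-A chain, measured 15.2, 20.6 and 35.9 CPM in F4/80high and 7.98, 21.3 and 25.9 CPM in F4/80low replicates 1, 2 and 3. The groups overlapped, with a fitted log2 fold change of 0.35 (SE 0.37, edgeR adjusted p = 0.844). Leaving out F4/80low replicate 1 gave 0.05, and leaving out F4/80low replicate 2 gave 0.86. The antisense gene *6330403L08Rik* overlaps *Pdgfa* exons on chromosome 5 and held at most 106 counts, and since the strand setting of the counting was not given in the sources used here, reads of the overlap could belong to either.

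*Hgf* encodes the ligand of MET and is a product of stromal and myeloid cells. It measured 19.8, 30.5 and 41.3 CPM in F4/80high and 27.6, 30.4 and 29.3 CPM in F4/80low replicates 1, 2 and 3. The F4/80high libraries lay on both sides of the F4/80low range, with pair ratios of 0.718, 1.00 and 1.41. The fitted difference on the log2 scale was 0.02 (SE 0.28, edgeR adjusted p = 0.994), and its sign turned in 4 of the alternatives.

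Of the EGFR ligands, none passed an unadjusted p of 0.05. *Hbegf*, which encodes the membrane-anchored ligand HB-EGF, measured 16.8, 15.9 and 71.7 CPM in F4/80high and 18.8, 44.8 and 68.2 CPM in F4/80low replicates 1, 2 and 3. Only replicate 2 differed clearly, with F4/80high at 0.354 of F4/80low, and the other pair ratios were 0.895 and 1.05. With all libraries *Hbegf* had a log2 fold change of -0.62 (SE 0.36, edgeR adjusted p = 0.705), which was -0.09 once F4/80low replicate 2 was left out.

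*Ereg*, which encodes epiregulin, showed the same replicate 2 gap. It measured 15.5, 9.05 and 115 CPM in F4/80high and 15.8, 27.1 and 122 CPM in F4/80low replicates 1, 2 and 3, and F4/80high was lower in all 3 pairs, at 0.986, 0.334 and 0.946 of F4/80low. In replicates 1 and 3 the libraries of a pair were thus nearly equal. *Ereg* had a log2 fold change of -0.56 (SE 0.32, edgeR adjusted p = 0.699), which was -0.24 once F4/80low replicate 2 was left out.

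*Areg*, which encodes amphiregulin, measured 31.3, 8.76 and 8.97 CPM in F4/80high and 17.6, 12.8 and 11.5 CPM in F4/80low replicates 1, 2 and 3. Replicate 1 was the highest library of each subset, and it was the only pair in which F4/80high was higher, by 1.78-fold. *Areg* had a log2 fold change of 0.16 (SE 0.46, edgeR adjusted p = 0.957), which was -0.02 with the replicate block and -0.61 without F4/80high replicate 1. F4/80high replicate 1 also had the highest sum of 10 T cell, NK cell and ILC markers, 1335 CPM, against 244 to 651 CPM in the other 5 libraries. All 9 of these markers that were tested had a log2 fold change above 0, with a median of 0.89, and 3 had an unadjusted p under 0.05. The sort for CD11b+ cells without lineage markers is meant to leave T cells out, yet the summed markers were found in every library. Mast cell and basophil markers summed to 41.3 to 253 CPM in F4/80high and 103 to 534 CPM in F4/80low, with F4/80low replicate 1 the highest. All 9 of these had a log2 fold change under 0, with a median of -0.97, and 1 had an unadjusted p under 0.05. Both groups of cells are known sources of amphiregulin, and their part in the *Areg* values was not tested.

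*Tgfa* was at 0 counts in 5 libraries and at 12 counts in F4/80low replicate 1. A count of 0 allows up to 3 counts, so no fold change is given. *Ereg* and *Areg* are neighbors on chromosome 5, between *Epgn* and *Btc*, with gaps of 39.4 kb from *Epgn* to *Ereg*, 46.0 kb from *Ereg* to *Areg* and 209 kb from *Areg* to *Btc*. *Epgn* had 22 counts in F4/80low replicate 1 and 0 in the other 5 libraries, the pattern of *Tgfa*. *Btc*, betacellulin, measured 4.32, 0.913 and 27.1 CPM in F4/80high and 6.00, 6.42 and 27.4 CPM in F4/80low replicates 1, 2 and 3. Neighboring genes of the cluster did not share 1 pattern, since *Ereg* and *Btc* were highest in replicate 3 of both subsets and *Areg* in replicate 1.

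**Figure D2:**
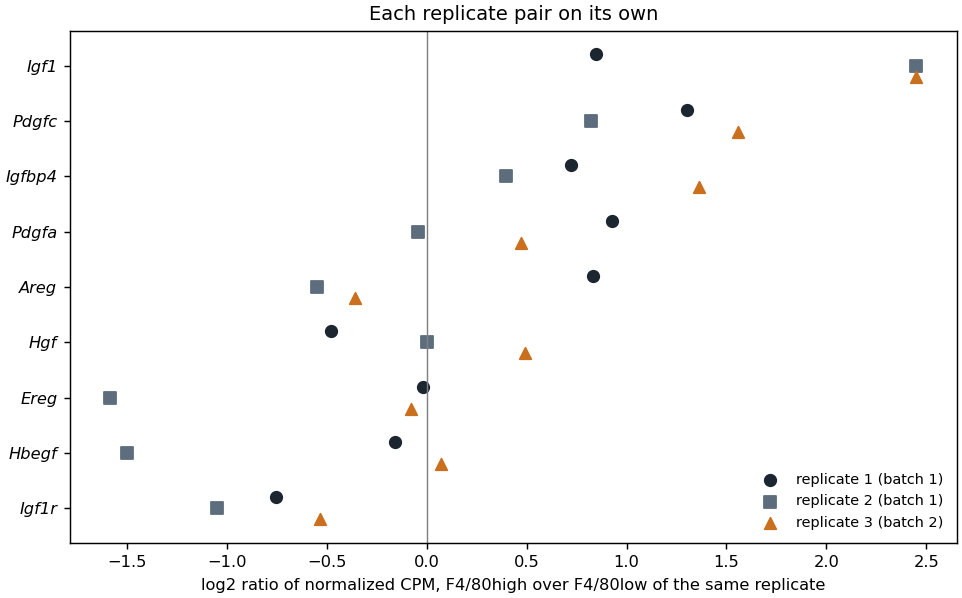
Log2 ratio of F4/80high over F4/80low CPM in each replicate pair, for 9 genes ordered by their fitted log2 fold change. All 3 points lie to the right of 0 for *Igf1*, *Pdgfc* and *Igfbp4*, and to the left for *Ereg* and *Igf1r*, with 2 of the 3 *Ereg* points close to 0.

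**Figure D3:**
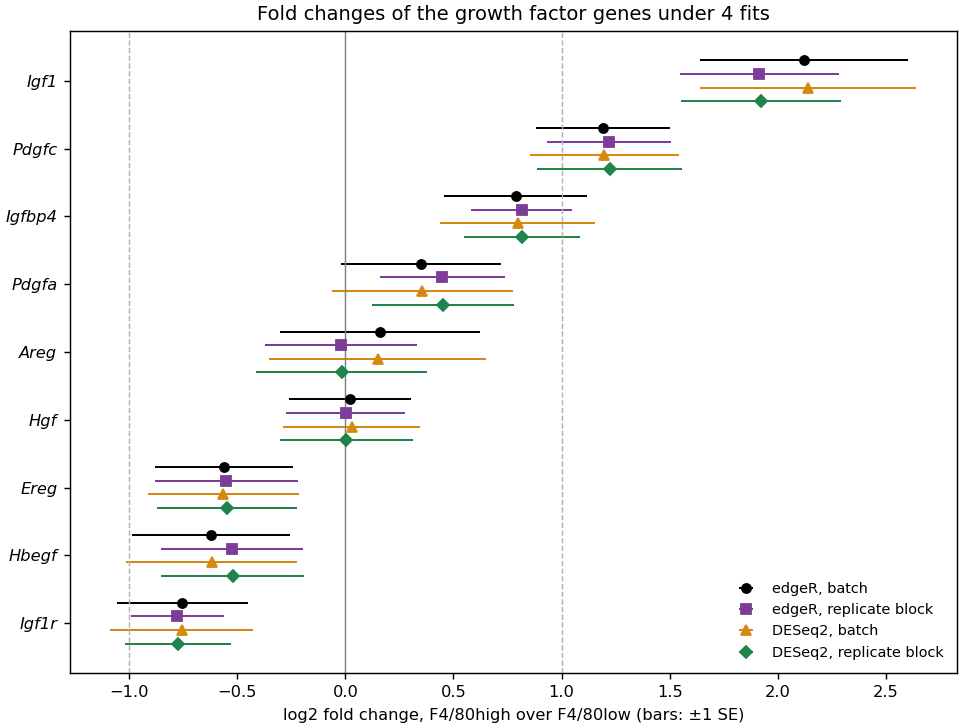
Log2 fold changes of 9 genes with ±1 SE under edgeR and DESeq2, each with batch or with the replicate block. The edgeR SE was worked back from its F statistic, and the DESeq2 SE came from its model. Dashed lines mark an absolute log2 fold change of 1, which of the 9 genes drawn only *Igf1* and *Pdgfc* passed in these 4 fits. The fits differed little in the fold changes, and *Igf1* was between 1.91 and 2.14 in the 4.

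Per kilobase of the gene length given in the tables, *Igfbp4* had the highest mean level over the 6 libraries, 24.4 CPM per kb, and *Igf1* the lowest of the 9 over both subsets, 2.75 CPM per kb. With these lengths *Igf1* was the lowest of the 9 in every F4/80low library, where it averaged 1.03 ± 0.26 CPM per kb (SD, n = 3). It was also the lowest in F4/80high replicates 1 and 3, at 1.74 and 4.46 CPM per kb. In F4/80high replicate 2 it stood at 7.21 CPM per kb, below *Igfbp4* and level with *Areg* (7.21 CPM per kb). That library raised its F4/80high mean to 4.47 ± 2.74 CPM per kb, beside 4.25 ± 1.49 for *Hgf*. Over all libraries, between *Igfbp4* and *Igf1* came *Hbegf* (16.6 CPM per kb), *Igf1r* (15.4 CPM per kb), *Areg* (12.5 CPM per kb), *Ereg* (12.3 CPM per kb), *Pdgfa* (6.78 CPM per kb), *Hgf* (4.15 CPM per kb) and *Pdgfc* (3.57 CPM per kb). The ranges of neighbors in this order overlapped throughout, and *Igf1r* spanned 1.55 to 47.1 CPM per kb. The tables list 4489 bases for *Igf1r* and 2373 for *Hbegf*, against 16791 and 4834 exonic bases in M21, and with the M21 lengths they stood at 4.12 and 8.14 CPM per kb, which put *Igf1r* below *Hgf*.

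**Figure D4:**
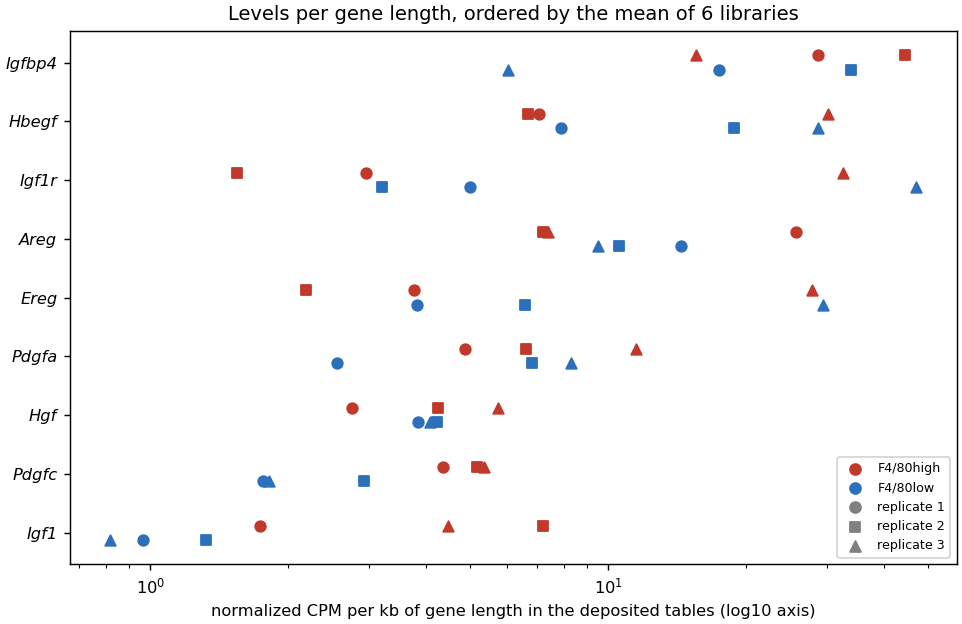
Normalized CPM per kb (log10 axis) of 9 genes in each library, ordered by the mean of 6, with color for the subset and shape for the replicate. *Igf1r* and *Ereg* spread over more than a factor of 10 across the libraries, with both replicate 3 libraries highest, and *Hgf* lay within 2.76 to 5.75 CPM per kb.

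The wider families were examined for whether other ligands, receptors or modulators differed. None of their genes was called by edgeR with batch or with the replicate block. Beside *Igf1* and *Pdgfc*, DESeq2 called *Met* with batch, and *Met* and *Igfbp5* with the replicate block. *Met* was called as lower in F4/80high, as were 103 of 14645 genes with batch and 223 with the replicate block. *Igfbp5* was called as higher, as were 0.895% of all genes in that fit. At an unadjusted p under 0.05 in edgeR with batch, 3.28% of all genes were higher and 4.32% lower. Of 22 IGF axis genes, 18 were tested, and 3 had an unadjusted p under 0.05 with higher and 2 with lower levels in F4/80high, 3 of these 5 being *Igf1*, *Igf1r* and *Igfbp4*. The other 2 were *Igfbp5*, a binding protein (log2 fold change 2.37, SE 0.98, edgeR adjusted p = 0.636), and *Htra1*, a protease that cuts IGF-binding proteins (-0.63, SE 0.27). *Igfbp5* had 76, 33 and 128 counts in the F4/80high and 32, 7 and 4 counts in the F4/80low libraries, so it was a rare transcript. It was higher in F4/80high in all 3 pairs, and DESeq2 with the replicate block called it (log2 fold change 2.55, adjusted p = 0.0428), where edgeR with the block did not (adjusted p = 0.348). *Stc1*, an inhibitor of the pappalysins that cut IGF-binding proteins, was at a log2 fold change of 0.75 (SE 0.62). *Igf2* had 0 counts in all 6 libraries. The insulin receptor *Insr* (-0.43, SE 0.25) and the IGF2 receptor *Igf2r* (-0.38, SE 0.26), which directs IGF2 to lysosomes, had small negative log2 fold changes. They averaged 2.14 and 5.16 CPM per kb. The median log2 fold change of the list was -0.33, against 0.01 over all genes tested, and it ran from -0.42 to 0.01 over the alternatives.

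Of 21 EGF family genes, 19 were tested, and 1 had an unadjusted p under 0.05, against 7.60% of all genes. It was *Nrg1*, a ligand of ERBB3 and ERBB4 (log2 fold change -0.89, SE 0.39, edgeR adjusted p = 0.647). *Nrg1* was lower in F4/80high in all 3 pairs. *Errfi1*, an intracellular inhibitor of EGFR, was at -0.58 (SE 0.27), and *Adam17*, the protease that releases HB-EGF and amphiregulin from the membrane, at 0.43 (SE 0.26). The receptors were low, with *Egfr* at 0.287, *Erbb2* at 0.317 and *Erbb3* at 0.521 CPM per kb. Their log2 fold changes were -0.25 (SE 0.64) for *Egfr*, 0.43 (SE 0.89) for *Erbb2* and 0.50 (SE 0.59) for *Erbb3*. The ligands *Egf* (0.124 CPM per kb), *Nrg2* (0.341 CPM per kb) and *Nrg4* (0.107 CPM per kb) were lower still than *Btc* (2.66 CPM per kb). *Erbb4* and *Nrg3* were not analysed here. The list's median log2 fold change was -0.37, from -0.53 to -0.24 over the alternatives.

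All 10 PDGF family genes were tested. At an unadjusted p under 0.05, 3 were higher, against 3.28% of all genes, and 1 was lower, against 4.32%. Beside *Pdgfc* these were *Pdgfb*, which encodes the PDGF-B chain (log2 fold change 0.88, SE 0.35, edgeR adjusted p = 0.621), *Pdgfrl*, which had 133 counts in all, and the receptor *Pdgfra* (-0.78, SE 0.32, edgeR adjusted p = 0.630). *Pdgfb* measured 26.8, 30.7 and 13.8 CPM in F4/80high and 8.89, 20.1 and 8.90 CPM in F4/80low replicates 1, 2 and 3, and was higher in F4/80high in all 3 pairs. *Pdgfra*, a receptor of PDGF-C on stromal cells, measured 26.7, 18.1 and 98.8 CPM in F4/80high and 53.3, 51.2 and 91.2 CPM in F4/80low, and the direction differed in replicate 3. *Pdgfrb*, the receptor of PDGF-B, was at -0.40 (SE 0.38). Both receptor genes, *Pdgfra* and *Pdgfrb*, are also among the fibroblast and pericyte markers summed above. The part of those cells in their values was not tested. *Plat*, whose product activates PDGF-C, was at -0.39 (SE 0.34), and *Pdgfd* had 54 counts in all. The median of the list was 0.12, and it ran from -0.20 without F4/80high replicate 1 to 0.52 without replicate 3 of both subsets.

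All 11 HGF and MST1 axis genes were tested. At an unadjusted p under 0.05, 1 was higher, against 3.28% of all genes, and 3 were lower, against 4.32%. *Met*, the receptor of HGF, measured 8.91, 2.99 and 31.2 CPM in F4/80high and 18.0, 17.7 and 70.8 CPM in F4/80low replicates 1, 2 and 3, and was lower in F4/80high in all 3 pairs. *Met* had a log2 fold change of -1.45 (SE 0.39, edgeR adjusted p = 0.461), and DESeq2 called it with batch (adjusted p = 0.0390) and with the replicate block (adjusted p = 7.81e-04), where edgeR with the block did not (adjusted p = 0.112). *Met* is also expressed by neutrophils. All 9 neutrophil markers tested had a log2 fold change under 0, with a median of -1.21. At an unadjusted p under 0.05, 7 of the 9 were lower, against 4.32% of all genes. The markers summed to 691 to 1974 CPM in F4/80high and 1428 to 4356 CPM in F4/80low. The part of neutrophils in the *Met* values was not tested. *Plau* (log2 fold change 0.94, SE 0.36), which encodes urokinase, was higher, and its receptor *Plaur* (-0.59, SE 0.23) was lower, in all 3 pairs. *Hpn*, which encodes the HGF-activating protease hepsin, was at -1.63 (SE 0.67) and was lower in 2 of 3 pairs. The median log2 fold change was -0.39, and it ran from -1.23 without F4/80high replicate 1 to -0.13 without F4/80high replicate 2. Among 12 genes that are induced by receptor tyrosine kinase signaling, such as the MAPK phosphatase *Dusp6* (log2 fold change 0.40, SE 0.24), only the transcription factor *Etv5* had an unadjusted p under 0.05 (1.01, SE 0.38, edgeR adjusted p = 0.596). *Dusp5* (-0.45, SE 0.38) and the inhibitor *Spry4* (-0.58, SE 0.34) lay below 0, and the median of the 12 was 0.13, from -0.16 to 0.18 over the alternatives.

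**Figure D5:**
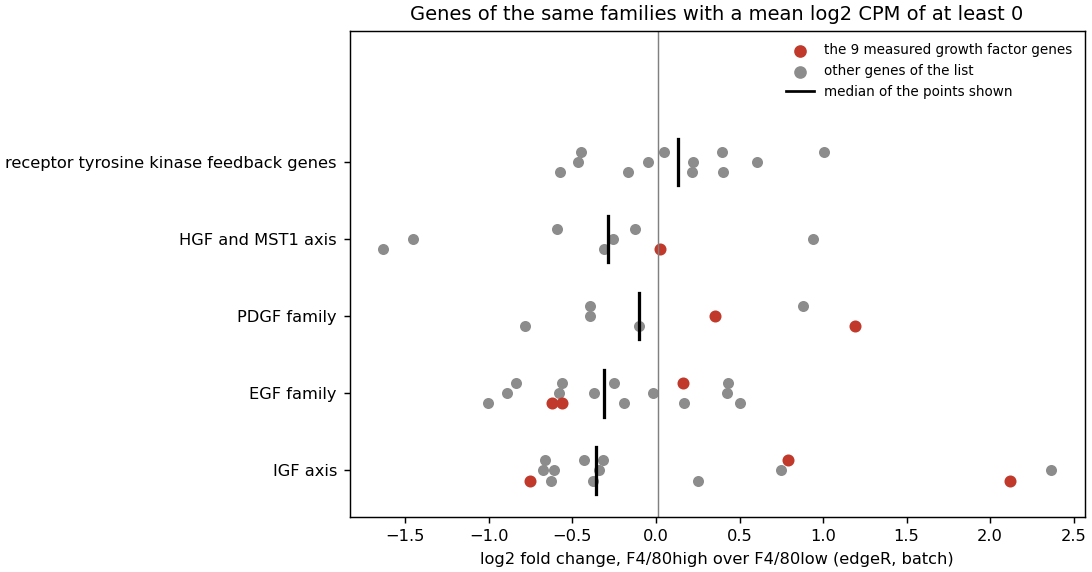
Log2 fold changes (edgeR with batch) of family genes that averaged a log2 CPM of 0 or more, by list, with the 9 growth factor genes in red and the rest in gray. The black bar is the median of the points shown, which was -0.10 for the PDGF family once its rarest genes were left out, and the thin line is the median of all genes.

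The 5 genes whose log2 CPM followed *Igf1* most closely over the 6 libraries, among 10071 compared, were *Nek1* (Pearson r = 0.998), *Dnase2a* (r = 0.992), *Gm4944* (r = 0.985), *Wwp1* (r = 0.983) and *Glul* (r = 0.980). *Dnase2a* encodes a lysosomal nuclease, *Glul* glutamine synthetase, *Wwp1* a ubiquitin ligase and *Nek1* a protein kinase. With 6 points that share experiments, 78 genes reached an r of 0.9 or more, and the order is a description. *Wwp1* had the largest log2 fold change of the 5, 1.39 (edgeR adjusted p = 0.470), with 29.4, 74.3 and 73.7 CPM in F4/80high and 20.8, 28.0 and 18.3 CPM in F4/80low replicates 1, 2 and 3. Among the growth factors, *Pdgfc* correlated with *Igf1* at r = 0.892, *Igfbp4* at 0.551 and *Areg* at -0.490.

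Markers of other cells were measured in all 6 libraries. Eosinophil markers summed to 93.8 to 187 CPM in F4/80high and 271 to 621 CPM in F4/80low. All 8 had a log2 fold change under 0, with a median of -1.68. At an unadjusted p under 0.05, 6 of the 8 were lower, against 4.32% of all genes. Dendritic cell markers summed to 78.7 to 271 CPM in F4/80high and 135 to 482 CPM in F4/80low. Endothelial markers summed to at most 45.8 CPM and keratinocyte markers to at most 1.92 CPM. Melanoma markers, of which 4 were measured and which include *Mitf*, a gene that macrophages also express, summed to 19.6 to 168 CPM in F4/80high and 13.2 to 106 CPM in F4/80low, with *Mlana* at or under 3 counts in every library. B and plasma cell markers summed to 10.9 to 139 and 6.62 to 128 CPM. Their part in the growth factor values was not tested.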

How the data were processed

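Bulk poly-A RNA-seq of 6 libraries was analysed, 3 of F4/80high and 3 of F4/80low TAMs. The authors deposited raw read counts per gene, as their sequencing center's standard pipeline gave them. The aligner, the counter, the strand setting, the genome build and the annotation are not given in the sources used here. Gene IDs were matched to GENCODE M21 (99.4% of 23424). Protein-coding genes with a total of 10 counts or more, 14645 in all, were tested with edgeR 4.0.16 in R 4.3.3 (quasi-likelihood test, TMM, terms for batch and subset), and with DESeq2 1.42.0 as an alternative. p-values were adjusted by Benjamini-Hochberg over all genes tested. Each edgeR SE was worked back from the test, as the absolute log2 fold change over the square root of its F statistic. The DESeq2 SE is the one that its model gives. All 10 genes passed the count filter, *Tgfa* with 12 counts through 1 F4/80low library.

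Depth was 16045281 to 43604373 counts. The 9 other genes held 71 to 10130 counts per library. The study describes 3 independent experiments, and libraries of the same replicate number were taken as pairs. Over 10072 genes, the libraries of replicates 1, 2 and 3 deviated together from their subset's mean (r = 0.745, 0.729 and 0.907). Libraries of unlike replicate number were not compared in this way, and the batch difference alone can raise these values. They therefore do not show that the libraries of replicates 1 and 2 were paired. No library was a copy of another.

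The genes and lists were chosen with earlier results of these data known. Named were the 10 genes, the other ligands and receptors of their families, up to 2 genes in each direction with the smallest p and a mean log2 CPM of at least 0 per list, and the 5 genes most like *Igf1*. *Hpn*, *Pdgfrl* and the features that stood out in batch 2 were named after their values were seen. CPM per kb used the gene length in the deposited count tables. Log2 CPM for likeness used a prior count of 2 and genes with a mean of at least 2. Promoter windows came from a RefSeq table on GRCm38.p6. The fits were also run on simulated counts. These held batch effects but no other differences between replicates, so the run does not show how the fits behave on these libraries. The alternatives were DESeq2, the replicate block, no batch term, RLE or library size alone, other count filters and biotypes, and leaving out libraries.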

Additional observations from a re-analysis of the deposited data

How the results depend on the processing

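None of the 10 genes and 0 of 14645 genes were called by edgeR with batch, where 1113 had an unadjusted p under 0.05. Genes called numbered 148 with DESeq2 and batch, 76 with edgeR and the replicate block (paired by replicate number) and 354 with DESeq2 and the replicate block. When 1 library was left out they numbered 0 to 57, the 57 without F4/80high replicate 1. Of the 10 genes, DESeq2 called 2 with batch and 2 with the replicate block (*Igf1* and *Pdgfc*), and leaving out 1 library gave 0 to 1 (*Igf1*, without F4/80high replicate 1). The count of the 10 with an unadjusted p under 0.05 was 4, fell to 2 with no batch term and to 2 without replicate 3 of both subsets, and was 2 to 5 when 1 library was left out. Other scalings, filters and biotypes moved none of these counts by more than 1.5 times.

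*Hgf* and *Areg* turned direction. The log2 fold change of *Hgf* was 0.02, and it was -0.20 without replicate 3 of both subsets and from -0.21 to 0.25 when 1 library was left out, with -0.13 when F4/80high replicate 2 was dropped and -0.21 when replicate 3 of either subset was. That of *Areg* was 0.16, and it was -0.019 with edgeR and the replicate block, -0.017 with DESeq2 and the replicate block, and from -0.61 to 0.47 when 1 library was left out, with -0.61 when F4/80high replicate 1 was dropped and -0.04 when F4/80low replicate 2 was. The cause was not tested. *Igf1*, *Pdgfc*, *Igfbp4* and *Pdgfa* were higher and *Igf1r*, *Ereg* and *Hbegf* were lower in F4/80high under all 17 alternatives. The log2 fold change of *Pdgfa* ran from 0.05 to 0.86. A fit without 1 library of replicate 3 leaves the other alone in batch 2, where it adds nothing to the subset difference. With 3 libraries per subset, and with 12 counts of *Tgfa* in all, smaller differences could not be detected.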
